A study of Mus musculus with 30 samples.

Results

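The genes described here lie on mouse chromosome 11 around Myocd, the gene that was deleted in the mutant embryos. A gene was a member when it started between 60.2 and 70.3 Mb (GRCm38) in the deposited tables and had a mean of at least 1 CPM over the 30 libraries, CPM being the count of a gene scaled to a common library total. Myocd itself, Ubb, Aldh3a1, Aurkb and symbols starting Dnah, Cfap, Tekt, Drc, Myh or Rpl were left out by name. The window held 310 annotated genes, of which 160 reached 1 CPM. Of these, 17 were left out by name, and 143 of the 53715 genes in the tables remained as members. The values that chose them were mean levels over mutants and controls together, so the comparison of mutants with controls was not part of the threshold. The names left out were picked with results of these data known, and the counts below describe only what remained.

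The study sequenced RNA from lungs and tracheas of mouse embryos in which Myocd had been deleted conditionally. Mutants carried Tbx4rtTAi/+, tetOcrei/+ and MyocdF/F. By these names they held a reverse tetracycline transactivator named for Tbx4, a Cre recombinase under its control and 2 floxed Myocd alleles. Controls carried the same Tbx4rtTAi/+ and tetOcrei/+ with MyocdF/+, which leaves them 1 floxed allele, so both groups held at least 1 such allele. Replicate 1 of the E13.5 controls is the exception: it was labelled MyocdF/F with neither transgene, and so had 2 floxed alleles without Cre. There were 5 mutant and 5 control lungs at E13.5 (E for embryonic day), 6 mutant and 4 control lungs at E18.5, and 6 mutant and 4 control tracheas at E18.5. Each library came from 1 embryo's lung or trachea. The labels name neither the strain background nor the deleted exons.

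A floxed allele is usually built in embryonic stem cells of one strain and crossed into another. Sequence variants of the stem-cell strain that lie near the targeted gene can then travel with the allele through many generations, because recombination between close sites is rare. Animals with 2 copies of the allele may for that reason differ from animals with 1 copy at neighbouring genes, whatever the deletion does. Myocardin, the product of Myocd, is a coactivator of serum response factor (SRF) that switches on contractile genes in smooth muscle through a short DNA motif, the CArG box. The members were compared with these features in mind, by genotype, by number of floxed alleles and by distance from Myocd.

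The 143 members comprised 129 protein-coding genes, 5 antisense RNAs, 3 lincRNAs, 3 snoRNAs, 2 processed transcripts and 1 processed pseudogene. Myocd spans 65176561 to 65269989 on chromosome 11, and 60 members lay at lower and 83 at higher coordinates. Only 6 members lay within 1 Mb of Myocd, 14 lay between 1 and 2.5 Mb away, and 123 lay farther out. The farthest were 4.82 Mb below and 4.97 Mb above. The members' mean level ran between 1.01 and 1433 CPM, with a median of 22.7 CPM. Per kilobase of exon the range was 0.113 to 741 CPM, with a median of 8.21. Together they took 0.657% to 1.11% of the counts of a library. Just inside the threshold were 9130017K11Rik at 1.01 CPM and 9330160F10Rik at 1.02 CPM, and just outside were Kcnj12 at 0.978 CPM and Asgr1 at 0.988 CPM. For 48 members some exon bases were shared with another gene. The library kit did not mark strand, so reads in such shared stretches cannot be assigned to one gene.

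Libraries held 11.7 to 32.8 M counts assigned to genes. Trachea mutant 4 (12.4 M), trachea control 2 (11.7 M) and E13.5 mutant 1 (17.4 M) had the lowest totals of their tables, and in trachea mutant 4 ribosomal RNA took 14.5% of the counts. In E18.5 lung, ribosomal RNA took 0.0815% to 0.126% of counts in mutants and 0.0648% to 0.0870% in controls. In trachea it took 0.758% to 14.5% in mutants and 0.812% to 2.65% in controls. Myocd reads averaged 10.6 ± 3.21 CPM in mutant and 13.03 ± 3.997 CPM in control E13.5 lungs (SD, n = 5 each). They averaged 7.23 ± 1.88 CPM in mutant and 9.26 ± 2.52 CPM in control E18.5 lungs, and 5.63 ± 1.998 CPM in mutant and 4.77 ± 2.95 CPM in control tracheas (SD, n = 6 and 4). Since reads outside the deleted exons still count, these values check no label. Summed smooth muscle markers (Acta2, Tagln, Myh11, Cnn1, Des, Lmod1 and Synpo2) separated the genotypes in each table. They came to 179 to 360 CPM in mutant and 545 to 678 CPM in control E13.5 lungs, 251 to 275 CPM in mutant and 287 to 333 CPM in control E18.5 lungs, and 164 to 361 CPM in mutant and 672 to 1034 CPM in control tracheas. In whole organs, fewer cells of a type and less RNA per cell cannot be told apart.

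Taken table by table, no member passed the test for a difference between mutants and controls. The test was edgeR's quasi-likelihood test with Benjamini-Hochberg adjustment over all genes tested, at an adjusted p of 0.05. In E13.5 lung 0 of 140 members tested were called, against 0.206% of all genes tested, while 10 members (7.14%) had an unadjusted p under 0.05, against 3.57% of all genes. In E18.5 lung 0 of 143 members were called, against 0.584% of all genes, and 18 members (12.6%) had an unadjusted p under 0.05, against 9.41%. In E18.5 trachea 0 of 143 were called, against 0.071% of all genes, and 11 members (7.69%) had an unadjusted p under 0.05, against 6.75%. DESeq2 called 1 member in E13.5 lung (Trpv2), 2 in E18.5 lung (Alkbh5 and Kctd11) and 1 in trachea (Ntn1), each of 143. Given every gene with a read, it called 79 of 32890, 262 of 30420 and 99 of 32202 genes in the same order. The genes left out by name did contribute calls: 4 of the 13 of them that were tested in E18.5 lung fell in mutants, and none rose.

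A single mutant effect fitted over all 30 libraries, with tissue and stage as a covariate, lowered 3 of 143 members and raised none. These were Clec10a, Ybx2 and Alkbh5. They make up 2.10% of the members, against 0.366% of all genes called in this fit and 0.332% called lower. At an unadjusted p under 0.05 there were 21 members (14.7%), against 9.37% of all genes. Of the 17 genes left out by name, 1 was called, and it was lower in mutants. With the ribosomal RNA share of each library as a covariate, a setting chosen after seeing the data, the same 3 members were called. On the rest of chromosome 11, 10 of 1404 genes tested (0.712%) were called in the same fit. Since members had to reach a mean of 1 CPM and many genes tested did not, sizes of change were set beside the 15632 genes tested that reached it. The median absolute log2 fold change was 0.09 for members and 0.08 for these genes, and 2.80% of members exceeded 0.5 in size, against 2.66%. The median signed change was 0.01 for members and -0.01 for these genes, of which 0.467% were called and 11.2% had an unadjusted p under 0.05.

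**Figure D1:**
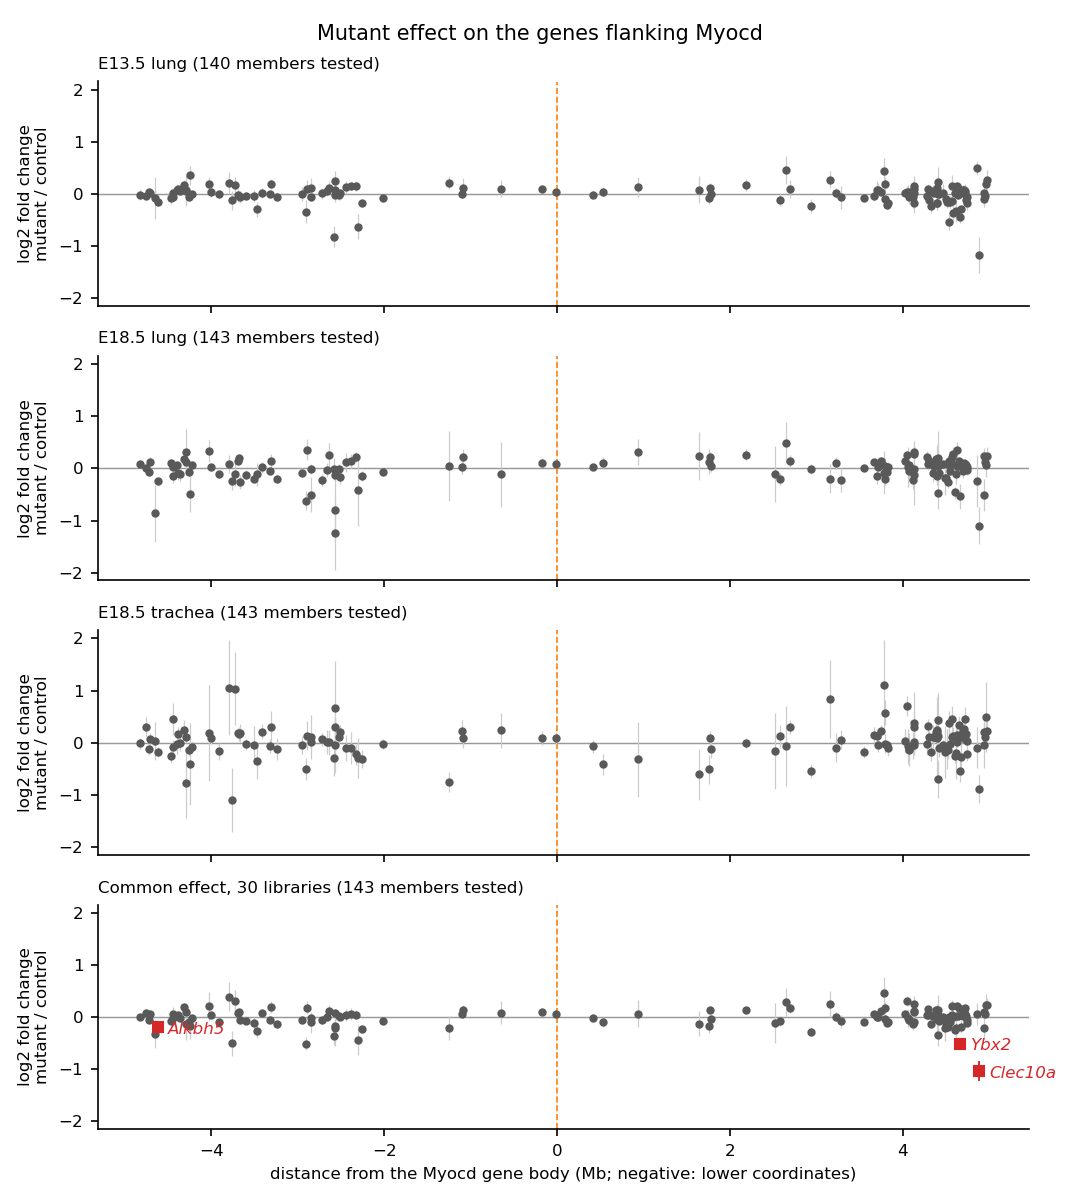
Log2 fold change of each member, mutant over control (y axis), against its distance from Myocd in Mb, negative below the gene and positive above it (x axis). Panels from top to bottom show E13.5 lung, E18.5 lung, E18.5 trachea and the fit over 30 libraries. In that fit the 3 members that passed, Alkbh5 below Myocd and Ybx2 and Clec10a above it, lie more than 4 Mb away. Of the 143 members, 123 lie more than 2.5 Mb away. The 6 members within 1 Mb sit between -0.09 and 0.09 in the same fit.

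Clec10a (ENSMUSG00000000318.16, chromosome 11, 70156197 to 70170834, plus strand, 4886 kb above Myocd) encodes a C-type lectin of macrophages and dendritic cells that binds galactose-type sugars. In E13.5 lung its level was 0.825, 0.371, 0.695, 0.391 and 0.189 CPM in the 5 mutants, against 1.32, 1.26, 0.666, 0.757 and 1.38 CPM in the 5 controls. In E18.5 lung mutants it ran between 0.530 and 2.24 CPM with a median of 1.003 CPM, and the controls had 2.55, 2.48, 2.68 and 2.03 CPM. In trachea the mutants ran between 3.15 and 6.92 CPM with a median of 5.22 CPM, and the controls had 6.99, 12.8, 10.6 and 8.51 CPM. The tracheal groups did not overlap, while 2 mutants at E13.5 and 1 in E18.5 lung reached into the control range. At E13.5 the values rest on 5 to 17 reads per mutant library and 16 to 38 per control library.

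The log2 fold change of Clec10a in mutants was -1.18 in lungs of E13.5 (SE 0.348), -1.10 in lungs of E18.5 (SE 0.353) and -0.88 in trachea (SE 0.266), with adjusted p-values of 0.677, 0.271 and 0.561 by edgeR. Over all 30 libraries it fell by 1.04 on the log2 scale (SE 0.190, adjusted p = 0.00602 by edgeR). Among 38 alternative settings the change ran between -1.14 and -0.91, and the call was lost in 1 of them, when the 20 lung libraries were fitted alone (-1.13, adjusted p = 0.0584 by edgeR).

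Clec10a has a near copy next to it, Mgl2 (ENSMUSG00000040950.13, 70130329 to 70137550), another galactose-type lectin of the same cells, and was set beside it after the values were seen. Mgl2 had 4.19, 3.51, 4.25, 4.19 and 4.16 CPM in E13.5 mutants, against 2.68, 2.41, 2.71, 2.91 and 3.74 CPM in controls. It was thus on the high side in mutants at the stage where Clec10a was on the low side, and differed by 0.49 on the log2 scale (SE 0.131, adjusted p = 0.432 by edgeR). Over the 30 libraries its change was 0.05 (SE 0.214, adjusted p = 0.965 by edgeR). How reads matching both copies were counted was not examined here, so the level of each is uncertain. Summed leukocyte markers (Ptprc, Csf1r and Laptm5) overlapped at E13.5, with 42.6 to 50.4 CPM in mutants and 43.7 to 51.2 CPM in controls. In E18.5 lung they did not overlap, with 82.5 to 103 CPM in mutants and 106 to 112 CPM in controls, and in trachea they overlapped, with 71.4 to 108 CPM in mutants and 74.6 to 93.5 CPM in controls. All 3 markers had reads in each group, and their part in the Clec10a result was not tested.

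Ybx2 (ENSMUSG00000018554.13, 69935796 to 69941605, plus strand, 4666 kb above Myocd) encodes a Y-box RNA-binding protein best known from germ cells, where it stores and stabilises messenger RNAs. In E13.5 lung it had 7.31, 7.10, 8.67, 8.03 and 8.17 CPM in mutants, against 8.59, 12.4, 9.37, 10.3 and 12.5 CPM in controls. In E18.5 lung mutants it ran between 2.37 and 5.25 CPM with a median of 3.32 CPM, and controls had 4.45, 4.74, 6.42 and 5.69 CPM. In trachea mutants it ran between 6.92 and 14.8 CPM with a median of 9.38 CPM, and controls had 12.97, 12.8, 16.8 and 16.4 CPM. The groups overlapped in all 3 tables: 1 E13.5 mutant, 2 E18.5 lung mutants and trachea mutant 4 fell within their controls' range. The log2 fold changes were -0.43, -0.54 and -0.54 in E13.5 lung, E18.5 lung and trachea (SE 0.118, 0.240 and 0.209). Over 30 libraries Ybx2 fell by 0.51 (SE 0.113, adjusted p = 0.0249 by edgeR). The call was lost with lung libraries alone (adjusted p = 0.159), without E18.5 lung control 3 (0.0583) and without trachea control 3 or 4 (0.0655 and 0.0661, each by edgeR).

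Alkbh5 (ENSMUSG00000042650.3, 60536381 to 60558512, plus strand, 4618 kb below Myocd) encodes a demethylase that removes N6-methyladenosine marks from RNA. In E13.5 lung it had 107, 137, 125, 132 and 138 CPM in mutants, against 152, 141, 150, 131 and 136 CPM in controls. In E18.5 lung mutants it ran between 121 and 138 CPM with a median of 130.1 CPM, and controls had 157, 147, 152 and 155 CPM. In trachea mutants it ran between 123 and 145 CPM with a median of 129 CPM, and controls had 151, 137, 167 and 153 CPM. Only in E18.5 lung did every mutant lie below every control. The change was small throughout, at -0.15, -0.23 and -0.18 on the log2 scale in E13.5 lung, E18.5 lung and trachea (SE 0.0785, 0.0570 and 0.0946). Over 30 libraries Alkbh5 fell by 0.20 (SE 0.0434, adjusted p = 0.0242 by edgeR). The call was lost with lung libraries alone (adjusted p = 0.0906), without E18.5 lung control 1 (0.0509) and without trachea control 3 or 4 (0.0667 and 0.0523, each by edgeR).

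Adora2b, which encodes a low-affinity adenosine receptor (2910 kb below Myocd), came next in order of p without passing. It had 1.18, 0.784, 0.572, 0.888 and 0.718 CPM in E13.5 mutants, against 0.765, 1.19, 0.916, 1.25 and 1.06 CPM in controls. In E18.5 lung mutants it ran between 4.76 and 9.57 CPM with a median of 5.39 CPM, and controls had 9.88, 8.83, 9.62 and 9.91 CPM. In trachea mutants it ran between 6.80 and 13.4 CPM with a median of 10.8 CPM, and controls had 14.6, 21.4, 13.4 and 13.1 CPM. Some mutants overlapped the controls in all 3 tables. The log2 fold change over 30 libraries was -0.51 (SE 0.124, adjusted p = 0.0553 by edgeR), and 9 of 38 alternative settings called it. The labels do not say whether E18.5 lungs and tracheas of the same code came from the same embryo, but each of the 10 tracheas correlated best with the lung of its own code (0.0496 to 0.197). With that code as a block, limma called Adora2b as well (-0.50, adjusted p = 0.0161) and kept the calls of Clec10a, Ybx2 and Alkbh5.

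**Figure D2:**
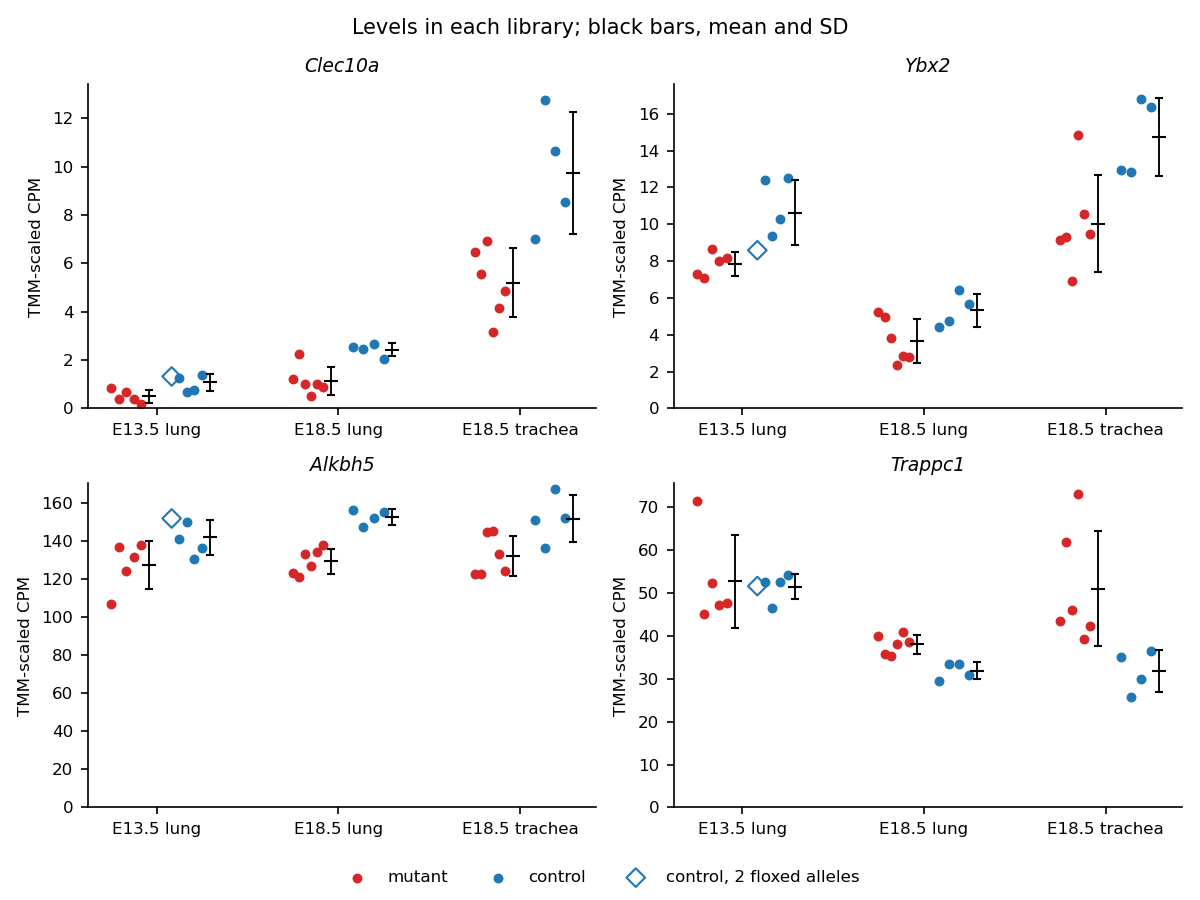
Levels of Clec10a, Ybx2, Alkbh5 and Trappc1 in each of the 30 libraries (CPM, linear axes), with mutants left of controls in each table. Bars give the group means with their SD, and E13.5 control 1, which has 2 floxed alleles and no Cre, is marked apart. For Clec10a, Ybx2 and Alkbh5 most mutants lie low in their table. Among these genes complete separation is seen only for Clec10a in trachea and Alkbh5 in E18.5 lung. Trappc1 mutants lie above every control in E18.5 lung and in trachea.

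The E13.5 lungs allow the number of floxed alleles to be set apart from Cre, in 1 library. When control 1 was counted with the 5 mutants, as 6 lungs with 2 floxed alleles against 4 lungs with 1, edgeR called 0 of 141 members, against 0% of all genes tested, and DESeq2 called 0 as well. An unadjusted p under 0.05 was reached by 10 members (7.09%), against 3.46% of all genes. Control 1 lay nearer to the mutant mean than to the mean of the other 4 controls for 66 of 140 members (47.1%), and for 49.2% of all genes. It lay outside the range of the other 4 controls on the mutants' side for 42 members (30%), and for 27.1% of all genes. In neither count did the members stand far from the other genes.

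Members differed in where that library fell. Ybx2 in control 1 (8.59 CPM) lay among the mutants (7.10 to 8.67 CPM) and below the other controls (9.37 to 12.5 CPM), so that the ranges by number of floxed alleles did not overlap. Its log2 fold change, 2 over 1 floxed alleles, was -0.48 (SE 0.104, adjusted p = 0.9999 by edgeR). Clec10a in control 1 (1.32 CPM) lay among the other controls instead, and its change by number of floxed alleles was -0.69 (SE 0.426). Alkbh5 had its highest E13.5 value in control 1 (152 CPM), and its change was -0.08 (SE 0.0914). With the number of floxed alleles in place of genotype over all 30 libraries, the log2 fold changes were -0.91 for Clec10a, -0.53 for Ybx2 and -0.18 for Alkbh5, with adjusted p-values of 0.0462, 0.0293 and 0.133 by edgeR. A single library cannot separate the floxed alleles from the other ways in which embryos differ.

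Besides Ybx2, ranges by number of floxed alleles did not overlap for Tmem102 and Slc2a4, which makes 3 of 141 members, against 0.723% of all genes. Both were named after their values were seen. Tmem102, a transmembrane protein, had 1.53 to 2.64 CPM with 2 floxed alleles and 2.69 to 3.25 CPM with 1 (log2 fold change -0.49, SE 0.158). Slc2a4, the insulin-regulated glucose transporter GLUT4, had 25.2 to 31.1 CPM with 2 floxed alleles and 33.3 to 37.7 CPM with 1 (-0.30, SE 0.0743). Neither passed (adjusted p = 0.9999 each by edgeR). In E18.5 lung the same genes overlapped between genotypes: Slc2a4 averaged 17.8 ± 2.90 CPM in mutant and 17.1 ± 2.17 CPM in control lungs, and Tmem102 averaged 6.39 ± 1.54 CPM in mutant and 5.78 ± 0.494 CPM in control lungs (SD, n = 6 and 4). In trachea the log2 fold change of Slc2a4 was -0.27, and control 1, at 41.0 CPM, lay above the other controls (15.9 to 19.6 CPM).

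None of the members nearest to Myocd passed the test. Arhgap44 (65002039 to 65162961, minus strand), a GTPase-activating protein, ends 13.6 kb below Myocd. It had 20.9, 23.8, 23.4, 24.1 and 23.9 CPM in E13.5 mutants, against 24.3, 21.8, 22.5, 23.7 and 21.3 CPM in controls. In E18.5 lung it had 95.3 to 114 CPM in mutants and 91.7 to 110 CPM in controls, and in trachea 43.2 to 56.6 CPM in mutants and 42.9 to 57.8 CPM in controls. Mutants and controls overlapped over most of their ranges in all 3 tables, and the log2 fold change over 30 libraries was 0.06 (SE 0.0502, adjusted p = 0.782 by edgeR). Elac2, a tRNA-processing endonuclease 174 kb below Myocd, had 66.6, 60.5, 63.6, 56.2 and 56.8 CPM in E13.5 mutants, against 58.8, 55.9, 58.6, 55.7 and 56.3 CPM in controls. Its change over 30 libraries was 0.09 (SE 0.0514, adjusted p = 0.635 by edgeR).

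On the other side, Map2k4, a kinase that activates JNK and p38 (418 kb above Myocd), had 91.5, 122, 118, 120 and 117 CPM in E13.5 mutants, against 112, 115, 118, 121 and 113 CPM in controls. Mutant 1 lay below the controls, and the other 4 mutants lay among them or just above. Its change over 30 libraries was -0.03 (SE 0.0540, adjusted p = 0.928 by edgeR), and it turned to 0.01 with lung libraries alone. The other neighbours in the nearest 5 on each side were Hs3st3a1, a heparan sulfate sulfotransferase, the uncharacterised 2810001G20Rik and Cox10, a heme farnesyltransferase of mitochondria, below Myocd. Above it were the zinc finger gene Zkscan6, the AMPA receptor auxiliary subunit gene Shisa6, the TRPV1-regulating membrane protein gene Pirt and Tmem220. Their log2 fold changes over 30 libraries ran between -0.16 for Tmem220 (SE 0.139) and 0.13 for 2810001G20Rik (SE 0.102), and none passed. The signs of Hs3st3a1, Cox10, Zkscan6, Shisa6, Pirt and Tmem220 turned under at least 1 alternative.

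**Figure D3:**
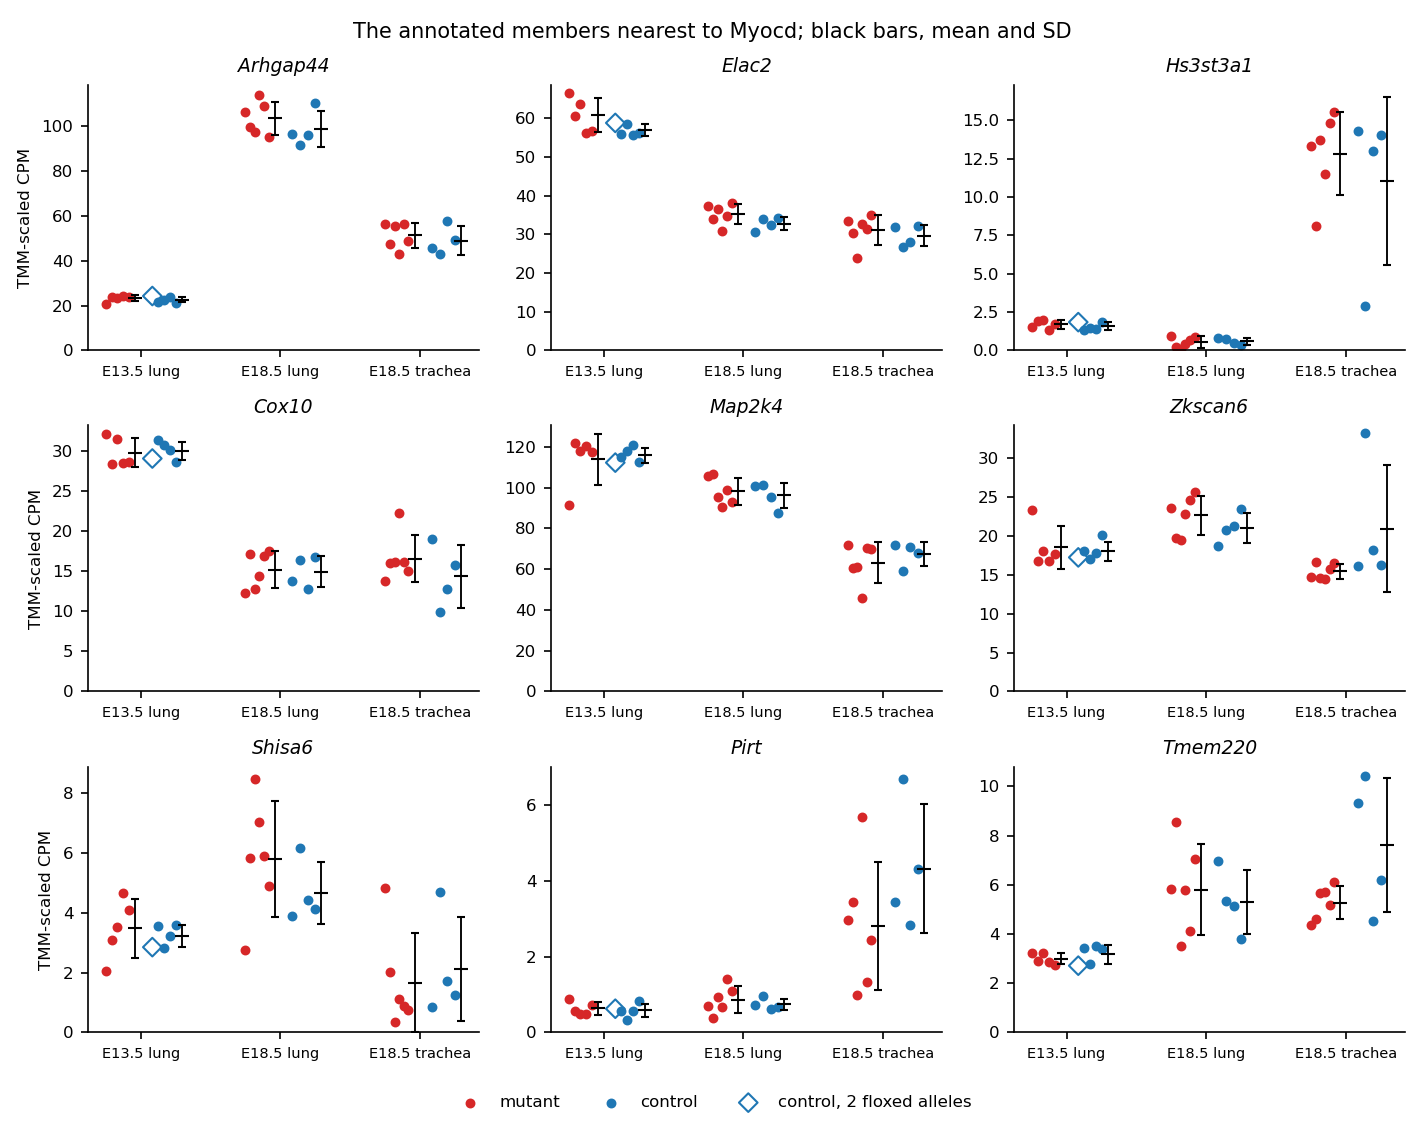
Levels of the 5 members nearest to Myocd on each side, except 2810001G20Rik, in each of the 30 libraries (CPM, linear axes). Mutants are left of controls in each table, bars give the group means with their SD, and E13.5 control 1 is marked apart. In the fit over 30 libraries, not drawn here, the log2 fold changes of the 5 nearest on each side lie between -0.16 and 0.13. Hs3st3a1, Shisa6 and Pirt have the largest SE of these in that fit (0.214, 0.256 and 0.240).

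Split by distance, the 6 members within 1 Mb had median log2 fold changes of 0.07 at E13.5 and 0.09 at E18.5 in lung, 0.01 in trachea and 0.06 over 30 libraries. No member of this zone reached an unadjusted p under 0.05 in any of these comparisons or by number of floxed alleles. Of the 14 members between 1 and 2.5 Mb, 1 reached an unadjusted p under 0.05 over 30 libraries, and none was called. Of the 123 members farther out, 20 reached it, and the 3 calls lie there. By side, 1 of 60 members below Myocd and 2 of 83 above it were called, all lower in mutants. In this fit 0.366% of all genes were called and 9.37% had an unadjusted p under 0.05. Among genes at a mean of 1 CPM or more the shares were 0.467% and 11.2%. With only 20 of the 143 members within 2.5 Mb, the place of 3 calls shows no pattern with distance.

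A few members kept mutants and controls apart without passing the test. In E13.5 lung this held for 2 of 140 members, against 0.983% of all genes, and these were Tmem102 and Slc2a4. In E18.5 lung it held for 3 of 143, against 2.42%, namely Alkbh5 and Kctd11 on the low side and Trappc1 on the high side. The E18.5 mutant lungs also had fewer reads of airway epithelial markers than the controls, with summed ciliated cell markers at 126 to 166 CPM in mutants and 186 to 217 CPM in controls, and summed club cell markers at 734 to 1045 CPM in mutants and 1297 to 1524 CPM in controls. Genes detected numbered 20379 to 22769 in these mutants and 22666 to 23982 in the controls, and the part of these differences in the members' values was not tested. In trachea it held for 6 of 143, against 2.32%, with Hs3st3b1, Ntn1 and Clec10a low and Stx8, Trappc1 and Eif4a1 high. Of 140 members tested in all 3 tables, 1, Trappc1, was apart in the same direction in at least 2 tables, against 0.222% of all genes, and none was in all 3, against 0.0131%.

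Trappc1 (ENSMUSG00000049299.14, 69323980 to 69325793, plus strand, 4054 kb above Myocd) encodes a subunit of the TRAPP complexes, which tether vesicles to the Golgi. In E13.5 lung it had 71.6, 45.1, 52.3, 47.3 and 47.7 CPM in mutants, against 51.6, 52.7, 46.5, 52.6 and 54.2 CPM in controls. In E18.5 lung mutants it ran between 35.2 and 40.9 CPM with a median of 38.3 CPM, and controls had 29.5, 33.5, 33.6 and 31.0 CPM. In trachea mutants it ran between 39.3 and 73.2 CPM with a median of 44.9 CPM, and controls had 35.1, 25.9, 29.99 and 36.5 CPM. The groups were thus apart at E18.5 in both organs and overlapped at E13.5, where mutant 1 alone was high. The highest tracheal values, 61.9, 46.1 and 73.2 CPM in mutants 2, 3 and 4, came with 6.48%, 6.51% and 14.5% ribosomal RNA. Mutants 1, 5 and 6 had 43.6, 39.3 and 42.2 CPM with 0.758%, 3.19% and 0.773%, and the controls had 0.812% to 2.65%. The part of ribosomal RNA in the tracheal values was not tested. The log2 fold changes were 0.04 in E13.5 lung (SE 0.114), 0.26 in lungs of E18.5 (SE 0.0805) and 0.70 in trachea (SE 0.185), and without mutant 1 the E13.5 value was -0.09. Over 30 libraries the change was 0.31 (SE 0.0901, adjusted p = 0.152 by edgeR). Among 38 alternative settings it ran between 0.15 and 0.33, and none called it.

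Kctd11 and Ntn1, both named after their values were seen, encode signalling proteins. Kctd11, an adaptor of a ubiquitin ligase that restrains Hedgehog signalling, ran between 14.2 and 21.1 CPM with a median of 18.4 CPM in E18.5 lung mutants, against 26.5, 24.2, 26.1 and 25.3 CPM in controls. Its log2 fold change there was -0.46 (SE 0.107, adjusted p = 0.0643 by edgeR), and it was called by DESeq2 (adjusted p = 0.00839) and without the filter on low counts (adjusted p = 0.0251 by edgeR). At E13.5 it had 10.3, 12.05, 12.06, 11.9 and 12.2 CPM in mutants, against 12.5, 12.1, 10.04, 11.6 and 11.9 CPM in controls, so no separation was seen in the younger lung. Ntn1, which encodes the secreted guidance cue netrin-1, ran between 41.8 and 69.0 CPM with a median of 58.2 CPM in trachea mutants, against 91.7, 76.1, 84.3 and 93.7 CPM in controls. The log2 fold change was -0.54 (SE 0.126, adjusted p = 0.263 by edgeR). Without trachea mutant 4 and control 2, the libraries of lowest total, it was -0.51 (adjusted p = 0.0465 by edgeR). In E18.5 lung Ntn1 averaged 23.4 ± 1.62 CPM in mutants and 23.7 ± 3.003 CPM in controls (SD, n = 6 and 4).

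Hs3st3b1, a heparan sulfate sulfotransferase of the same family as Hs3st3a1, ran between 13.1 and 26.2 CPM with a median of 20.6 CPM in trachea mutants, against 27.9, 43.2, 35.2 and 32.0 CPM in controls (log2 fold change -0.75, SE 0.197, adjusted p = 0.386 by edgeR). Summed cartilage markers (Col2a1, Acan, Sox9 and Matn1) ranged over 2438 to 10079 CPM in mutant and 7618 to 11856 CPM in control tracheas, and their part in the tracheal values of the members was not tested. On the high side, Stx8, a syntaxin of endosomes named after its values were seen, had 21.3 to 26.9 CPM in mutant and 16.7 to 21.1 CPM in control tracheas (0.30, SE 0.138). Eif4a1, the RNA helicase of the cap-binding complex, had 312 to 368 CPM in mutant and 286 to 305 CPM in control tracheas (0.24, SE 0.0918). Neither passed (adjusted p = 0.733 and 0.677 by edgeR).

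The 2 lung tables share no library, so their directions can be set side by side. The log2 fold changes had the same sign at E13.5 and E18.5 for 85 of 140 members (60.7%), and for 53.1% of all genes. For E13.5 lung and trachea it was 85 of 140 members (60.7%), against 55.2%. For E18.5 lung and trachea, which may share embryos, it was 89 of 143 (62.2%), against 55.2%. All genes here include those under a mean of 1 CPM. Tests of the difference in mutant effect called none of the 143 members, either for E18.5 lung minus E13.5 lung (0.0268% of all genes called) or for trachea minus E18.5 lung (0.0252%). At an unadjusted p under 0.05 there were 12 members (8.39%) in the first, against 5.85% of all genes, and 7 members (4.90%) in the second, against 6.92%. DESeq2 called 0 members in each.

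The members were also grouped by function. Of 10 members in the list of RNA, translation and protein turnover, 1, Alkbh5, was lower in mutants over 30 libraries, and the median change was 0.08. None passed among 12 genes of transcription and chromatin (median log2 fold change 0.02), 19 of signalling and cytoskeleton (-0.01), 15 of mitochondria and metabolism (0.01), 10 of trafficking (0.00), 10 of cell surface and matrix (-0.08) and 3 of the base of the cilium (0.05). Clec10a and Ybx2 were among the 64 members in no list, whose median was -0.02. The medians over all members and all genes were 0.01 and -0.01.

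The 5 members with the highest mean CPM were Mfap4, an elastic fibre protein of lung and vessels, Eif4a1, the chromatin remodeller gene Chd3, the translation factor gene Eif5a and Polr2a, the largest subunit of RNA polymerase II. None passed over 30 libraries, with log2 fold changes of 0.08 (SE 0.0638), 0.13 (SE 0.0491), -0.05 (SE 0.0698), 0.18 (SE 0.0702) and 0.01 (SE 0.0698) in that order. The sign of Chd3 and of Polr2a turned under some alternatives. In these genes E13.5 mutant 1 stood apart from the other 4 mutants, with 1531 CPM of Eif4a1 against 1087 to 1184 CPM, 989 CPM of Eif5a against 694 to 774 CPM, and 436 CPM of Chd3 against 708 to 788 CPM. E13.5 values are therefore given with that library in view, and leaving it out changed no member's call in that table.

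Control organs differed in most members. E18.5 control lungs differed from E13.5 control lungs in 112 of 143 members, 57 higher and 55 lower, against 74.7% of all genes called, 37.4% higher and 37.3% lower. Mfap4 averaged 2553 ± 238 CPM at E18.5 and 287 ± 54.1 CPM at E13.5 (SD, n = 4 and 5), which is 3.17 on the log2 scale (SE 0.127, adjusted p = 8.58e-17 by edgeR). Adora2b averaged 9.56 ± 0.502 CPM at E18.5 and 1.04 ± 0.198 CPM at E13.5 (3.22, SE 0.223, adjusted p = 2.84e-12 by edgeR). Both had control groups far outside each other's range. On the low side, Efnb3, which encodes the Eph receptor ligand ephrin-B3, averaged 10.01 ± 0.228 CPM at E18.5 and 46.9 ± 2.85 CPM at E13.5 (-2.21, SE 0.101, adjusted p = 9.71e-16 by edgeR). Rnf227, a RING finger gene, averaged 5.33 ± 0.883 CPM at E18.5 and 19.3 ± 2.06 CPM at E13.5 (-1.84, SE 0.129, adjusted p = 3.65e-12 by edgeR). Each stage was counted in a table of its own, so stage and table cannot be told apart.

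By function, the counts are given as a description, to be read against 37.4% of all genes higher and 37.3% lower. Among the 10 members in the list of RNA, translation and protein turnover, 9 were lower and none was higher at E18.5 than at E13.5, with a median log2 fold change of -0.67. Among the 15 genes of mitochondria and metabolism, 8 were lower and 3 higher (median -0.58), and among the 12 of transcription and chromatin, 7 were lower and 3 higher (-0.38). Among the 19 of signalling and cytoskeleton, 13 were higher and 6 lower (median 0.45). In the small lists, 4 were higher and 2 lower of 10 in trafficking, 5 higher and 3 lower of 10 in cell surface and matrix, and 2 lower of 3 at the base of the cilium. Nearest to Myocd, Arhgap44 rose with a log2 fold change of 2.13, and of the genes that passed between genotypes Clec10a rose by 1.19 and Ybx2 had a change of -0.98.

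Control tracheas differed from control lungs at E18.5 in 72 of 143 members, 35 higher and 37 lower, against 49.1% of all genes called, 24.5% higher and 24.6% lower. Hs3st3b1 averaged 34.6 ± 6.47 CPM in trachea and 1.52 ± 0.704 CPM in lung (SD, n = 4 each), which is 4.52 on the log2 scale (SE 0.567, adjusted p = 1.29e-06 by edgeR). Its relative Hs3st3a1 averaged 11.1 ± 5.46 CPM in trachea and 0.592 ± 0.210 CPM in lung (4.21, SE 0.512, adjusted p = 1.79e-07 by edgeR), with trachea control 2 low at 2.91 CPM. Hs3st3a1 shares 32.9% of its exon bases with F930015N05Rik on the opposite strand, so its level may include reads of that gene. On the low side, Grap, an adaptor protein known from lymphocytes, averaged 7.39 ± 3.52 CPM in trachea and 70.5 ± 4.06 CPM in lung (-3.21, SE 0.293, adjusted p = 3.51e-09 by edgeR). Arhgef15, a guanine nucleotide exchange factor of endothelial cells, averaged 20.2 ± 2.69 CPM in trachea and 184 ± 3.28 CPM in lung (-3.17, SE 0.117, adjusted p = 6.88e-17 by edgeR). Clec10a was higher in trachea (2.01, adjusted p = 3.59e-05 by edgeR), while Alkbh5 was at the same level in both organs (0.00). Each organ was also counted in a table of its own, so organ and table cannot be told apart.

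**Figure D4:**
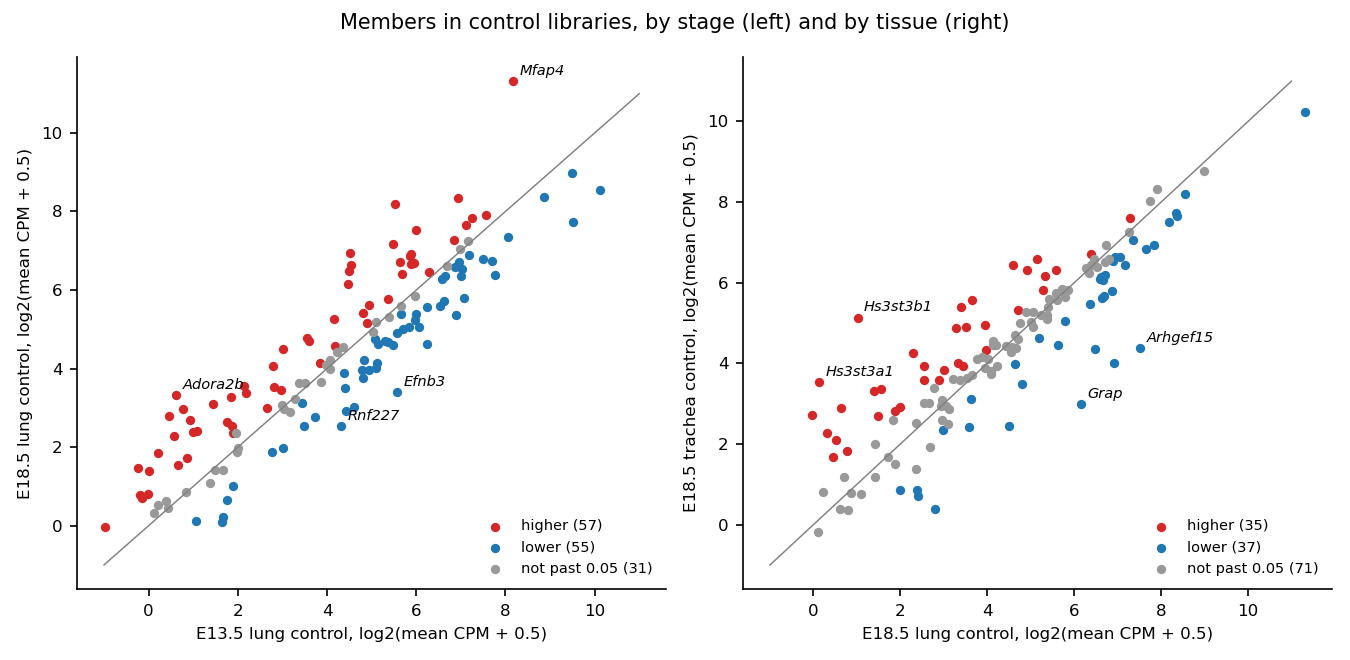
Mean level of each member in control organs, as log2 of CPM plus 0.5, coloured by the outcome of the test. The left panel sets E18.5 lung (y axis) against E13.5 lung (x axis). The right panel sets E18.5 trachea (y axis) against E18.5 lung (x axis). On the left Mfap4 and Adora2b lie far above the diagonal, and Efnb3 and Rnf227 far below it. On the right Hs3st3b1 and Hs3st3a1 lie far above it, and Grap and Arhgef15 far below it. The E18.5 control lungs enter both panels.

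A CArG box, the site of SRF, is CC followed by 6 bases that are each A or T and then GG. It was searched on both strands in RefSeq promoter windows (GRCm38.p6, from 250 bases before to 50 after each gene's start), which were at hand for 91 of the 143 members. A match was found in 1 of 91 (1.10%), against 1.81% of 27025 genes. The match was in Tnk1, a non-receptor tyrosine kinase gene, and none was found in the windows of Alkbh5 and Ybx2. The sequence before the start of Tnk1 is shown because it holds the single match among the 91 windows searched (chr11:69858731-69858980, minus strand, given 5′ to 3′ in the direction of the gene, with the CArG box in capitals, its first base at -41 from the start).
Tnk1: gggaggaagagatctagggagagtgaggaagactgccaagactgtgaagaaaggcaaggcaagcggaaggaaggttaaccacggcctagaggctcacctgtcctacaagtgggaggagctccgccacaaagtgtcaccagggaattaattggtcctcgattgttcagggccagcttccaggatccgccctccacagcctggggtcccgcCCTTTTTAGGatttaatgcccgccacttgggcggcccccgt

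Tnk1, named for this motif after its values were seen, had 3.48, 4.99, 6.54, 6.43 and 6.46 CPM in E13.5 mutants, against 7.83, 6.56, 7.33, 6.43 and 8.24 CPM in controls. In E18.5 lung it ran between 10.2 and 15.6 CPM with a median of 12.5 CPM in mutants, and controls had 9.16, 11.96, 9.07 and 11.5 CPM. In trachea it had 10.5 to 19.98 CPM in mutants and 12.1 to 16.1 CPM in controls. Mutants were thus on the low side at E13.5 and on the high side in E18.5 lung, with overlap in each table. The log2 fold changes were -0.37 (SE 0.160), 0.27 (SE 0.143) and 0.12 (SE 0.182) in these tables, and no difference was called over 30 libraries (SE 0.105, adjusted p = 0.994 by edgeR). Tnk1 shares 26.8% of its exon bases with Plscr3 on the opposite strand. A match in this window is a description of its letters, not a bound site.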

How the data were processed

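The 3 deposited tables hold raw read counts per gene for 30 libraries. The authors made these counts with featureCounts 1.6.2 and GENCODE vM17, per the file headers, from reads aligned with STAR to GRCm38, per the submitters' processing notes, which name no version of STAR. Gene symbols came from GENCODE vM21 for 53620 of 53715 gene IDs.

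Levels are CPM with TMM scaling over all 30 libraries; the rule for members used CPM without it. Genes passing filterByExpr were tested with edgeR 4.0.16 (R 4.3.3), TMM and its robust quasi-likelihood F test (two-sided), adjusted by Benjamini-Hochberg over all genes tested. SE is the log2 fold change divided by the root of F. The code was tested on simulated data. DESeq2 1.42.0 and limma 3.58.1 served for alternatives. Genes were named if called, nearest to Myocd, apart in at least 2 tables, of highest level, extreme between control organs, or at the CPM threshold. The members and lists were chosen with earlier results of these data known. Within a group, p-values measure the spread between embryos. Fits that hold both E18.5 organs took lungs and tracheas as independent, although those of one code may share an embryo. Only the block by shared code allowed for that. Libraries held 11.7 to 32.8 M counts. No 2 replicates were alike within counting noise. RefSeq promoter windows covered 91 members, and Clec10a is named only.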

Additional observations from a re-analysis of the deposited data

Results flagged for a closer look

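Among 216 groups of values for the 36 members examined one by one, 24 held a library far from the rest of its group, where chance gives about 1 in 20 groups, and 11 of the 24 fell on E13.5 mutant 1. That library had 20.9 CPM of Arhgap44 against 23.4 to 24.1 CPM in the other 4 mutants, 14.9 CPM of 2810001G20Rik against 6.999 to 8.50 CPM, 91.5 CPM of Map2k4 against 117 to 122 CPM, and 23.3 CPM of Zkscan6 against 16.8 to 18.1 CPM. It had 71.6 CPM of Trappc1 against 45.1 to 52.3 CPM, 1531 CPM of Eif4a1 against 1087 to 1184 CPM, 436 CPM of Chd3 against 708 to 788 CPM and 989 CPM of Eif5a against 694 to 774 CPM. It had 27.1 CPM of Grap against 18.6 to 20.2 CPM, 10.3 CPM of Kctd11 against 11.9 to 12.2 CPM and 24.3 CPM of Ntn1 against 38.5 to 42.7 CPM. E13.5 mutant 2 was low for Rnf227, at 17.9 CPM against 19.99 to 20.8 CPM, and for Mgl2, at 3.51 CPM against 4.16 to 4.25 CPM.

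In trachea, control 2 had 2.91 CPM of Hs3st3a1 against 13.01 to 14.3 CPM in the other 3 controls and 33.2 CPM of Zkscan6 against 16.2 to 18.2 CPM. Mutant 4 had 22.3 CPM of Cox10 against 13.8 to 16.2 CPM and 3.05 CPM of Rnf227 against 10.7 to 13.4 CPM. Mutant 1 had 4.83 CPM of Shisa6 against 0.361 to 2.03 CPM, and mutant 2 had 12.2 CPM of Grap against 4.98 to 6.75 CPM. Control 3 had 305 CPM of Eif4a1 against 286 to 288 CPM and 211 CPM of Polr2a against 196 to 197 CPM, and control 1 had 41.0 CPM of Slc2a4 against 15.9 to 19.6 CPM. In E18.5 lung, control 3 had 13.9 CPM of Slc2a4 against 17.99 to 18.6 CPM, and control 1 had 35.0 CPM of Tvp23b against 40.5 to 41.6 CPM.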

How the results depend on the processing

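No member was called in E13.5 lung, E18.5 lung, trachea, by number of floxed alleles or in either difference of effects, and this held with other size factors and with the replicate block. The exceptions were DESeq2 with 1, 2 and 1 members in the 3 tables, 1 in E18.5 lung without the low-count filter and 1 in trachea without mutant 4 and control 2. Leaving out each library in turn gave 0 to 0 in E13.5 lung, trachea, floxed alleles and both differences, and 0 to 2 in E18.5 lung (2 without mutant 2). Over 30 libraries the 3 calls became 0 with lung alone, 5 without the 3 libraries of lowest total, 0 within 2.5 Mb and 1 to 4 leaving out each library (1, Clec10a, without trachea control 3 or 4). Between control organs 13 of the 20 members within 2.5 Mb were called for stage and 13 of 20 for tissue. Of all genes tested, 74.7% and 49.1% were called. Leaving out each library gave 106 to 110 and 67 to 72 members, beside 13422 to 13726 and 8821 to 9712 of all genes. Members numbered 111 at a minimum of 5 CPM and 144 with TMM-scaled CPM.

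Same-numbered mutants and controls correlated at -0.207 to -0.0255 in E13.5 lung, 0.0303 to 0.22 in E18.5 lung and -0.267 to 0.244 in trachea. At E13.5 no mutant correlated best with the control of its own number. At E18.5 lung mutants 2, 3 and 4 and tracheal mutants 2 and 3 did. Whether the numbers pair the E18.5 libraries is therefore not settled, and the main tests took them as unpaired. With the replicate number as a block the members called were 0 in the 3 tables and by floxed alleles, 111 for stage and 73 for tissue. Without the block, stage and tissue gave 112 and 72 of 143 members, against 74.7% and 49.1% of all genes. Blocking E18.5 lungs and tracheas by shared code over 30 libraries gave 4 members, beside 172 of 20494 genes.

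Calls over all genes moved more. E13.5 lung gave 34, 79 by DESeq2, 0 with the block and 17 to 56 leaving out each library. E18.5 lung gave 102, 262, 73 and 26 to 205 in that order, and trachea 13, 99, 28 and 3 to 16. By floxed alleles the count was 0, and 0 to 19 leaving out each library. Over 30 libraries it was 75, with 164, 172 and 48 to 116.

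Some log2 fold changes near 0 changed sign. For Trappc1 at E13.5 this was -0.0906 without mutant 1 and control 1, with -0.0932 to 0.0855 leaving out each library. By floxed alleles Trappc1 was -0.0942 with the block and -0.0695 to 0.0700 leaving out each library. Over 30 libraries, lung alone gave 0.00532 for Map2k4, 0.0751 for Zkscan6, 0.168 for Pirt, 0.0277 for Tmem220 and 0.00265 for Chd3. Without the 3 libraries of lowest total it was -0.0128 for Hs3st3a1, -0.0152 for Cox10, 0.00588 for Map2k4, 0.0216 for Chd3, -0.113 for Mgl2 and 0.0557 for Tnk1. With the ribosomal RNA share as a covariate it was -0.00761 for Cox10, 0.0164 for Map2k4, 0.0158 for Chd3 and -0.0121 for Mgl2. The block gave -0.000893 for Polr2a, -0.126 for Mgl2 and 0.0460 for Tnk1. No low-count filter gave -0.00156 for Polr2a, and for Tnk1 DESeq2 gave 0.0106, other size factors 0.00643 and floxed alleles 0.0382. Leaving out each library gave -0.0320 to 0.142 for Hs3st3a1, -0.127 to 0.0134 for Zkscan6, -0.121 to 0.273 for Shisa6, -0.0264 to 0.0531 for Polr2a, -0.0661 to 0.138 for Mgl2 and -0.0425 to 0.0489 for Tnk1. The cause was not tested. The settings that remove several libraries together or add the ribosomal RNA share were chosen after seeing the data.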
